A study of Homo sapiens with 2 samples.

Results

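The nuclear genes of respiratory complex III, respiratory complex IV and the mitochondrial ATP synthase were read out in PLC, a line of human liver cancer cells. Members were the loci whose gene name, or one of several joined names, starts with UQCR or ATP5, or with COX followed by a digit from 4 to 8. Names that end in P and digits, which mark pseudogenes, were left out. The rule found 44 loci among the 24991 gene names present in both libraries, and all 44 overlapped the gene of the same name, or of its current name, in GENCODE on GRCh37. In the study, the control cells carried the empty vector (EV) and the other cells stably overexpressed human PRSS35, a secreted protease that the study examined for its substrates, after lentiviral transfer of its coding sequence. Both groups were PLC cells, with a wild-type genotype label for EV and a PRSS35 over-expression label for the other, and neither had a further treatment. The cell line was grown in medium with 25 mM glucose, 4 mM glutamine, 1 mM pyruvate and 10% serum. Each group was 1 library from 1 stable line, so no difference between the groups has a replicate check, no p-value is given, and PRSS35 and the choice of culture cannot be told apart as sources of a difference. Fewer cells of a kind and less RNA per cell cannot be told apart in such bulk samples either.

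The respiratory chain passes electrons from NADH and succinate to oxygen across the inner mitochondrial membrane. Complex III, the cytochrome bc1 complex, hands electrons from ubiquinol to cytochrome c, and complex IV, cytochrome c oxidase, hands them on to oxygen. Both pump protons, and the ATP synthase lets the protons flow back through a rotating ring of c subunits while its F1 head makes ATP. The catalytic cores of complexes III and IV are in part encoded in mitochondrial DNA. The genes described here are nuclear, and most of them encode other subunits. Hepatocytes are rich in mitochondria, and several complex IV subunits have a second isoform for muscle, lung or testis.

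The c subunit of the ring is encoded by 3 nuclear genes, ATP5G1, ATP5G2 and ATP5G3 (now ATP5MC1, ATP5MC2 and ATP5MC3). They are shown because the single 2-fold difference among the members was in one of them. Their precursors have 136, 141 and 142 residues and differ in the import sequence at the start, while the last 77 residues are identical in all 3 genes. The coding ends for these residues, 231 bases without the stop codon, are printed from GENCODE transcripts on GRCh37, read along the coding strand. Capitals mark the 57 positions at which the 3 genes do not all have the same base. ATP5G1 is on the plus strand at chr17:46972578-46973128, ATP5G2 on the minus strand at chr12:54059101-54063050 and ATP5G3 on the minus strand at chr2:176043019-176043903, and each stretch spans 2 coding exons.
ATP5G1: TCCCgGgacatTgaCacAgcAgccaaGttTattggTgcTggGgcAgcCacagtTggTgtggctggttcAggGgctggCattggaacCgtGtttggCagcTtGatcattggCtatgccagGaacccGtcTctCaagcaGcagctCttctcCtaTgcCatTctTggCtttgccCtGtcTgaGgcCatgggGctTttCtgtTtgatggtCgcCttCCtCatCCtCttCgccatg
ATP5G2: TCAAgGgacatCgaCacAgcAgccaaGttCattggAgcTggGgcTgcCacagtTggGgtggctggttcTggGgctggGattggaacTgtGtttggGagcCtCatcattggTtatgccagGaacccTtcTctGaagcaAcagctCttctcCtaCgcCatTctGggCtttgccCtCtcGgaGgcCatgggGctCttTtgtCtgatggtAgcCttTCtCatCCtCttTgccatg
ATP5G3: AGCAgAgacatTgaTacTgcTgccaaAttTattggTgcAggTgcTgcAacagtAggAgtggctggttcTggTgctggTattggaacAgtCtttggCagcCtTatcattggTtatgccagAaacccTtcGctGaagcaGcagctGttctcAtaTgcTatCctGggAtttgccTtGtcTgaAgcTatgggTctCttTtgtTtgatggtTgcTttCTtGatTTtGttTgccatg
ATP5G1 and ATP5G2 were identical at 88.3% of these bases, and ATP5G3 was identical to either of them at 80.1%. Of the 50-base stretches in the canonical transcript of each gene, 0% occurred in the other two. Stretches of that length thus tell the 3 genes apart.

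The promoters of respiratory genes are a textbook case of shared control by nuclear respiratory factor 1 (NRF-1) and the ETS factor GABP. RefSeq windows on GRCh38.p14, from 250 bases before to 50 bases after the start, were at hand for 33 of the 44 members, with 39 windows in all. The NRF-1 letters GCGCATGCG, searched on both strands, were in the windows of 5 of the 33 genes (15.2%), against 2.34% of 27305 genes with a window. The ETS letters CCGGAAG were in those of 13 (39.4%), against 12.2% of all genes. The YY1 letters AAGATGGCG were in the windows of 2 members (6.06%, against 2.14% of all genes), and TATAAA in those of 4 (10.3% of member windows, against 11.5% of all windows). The motifs searched share no overlapping letters in the windows shown. Members with both the NRF-1 and the ETS letters in 1 window were ATP5I, ATP5J and COX6A1. Their windows are printed in the direction of transcription, with every match to a searched motif in capitals. They are the minus strand of chr4:674227-674526 for ATP5I, the minus strand of chr21:25735005-25735304 for ATP5J, and the plus strand of chr12:120437863-120438162 for COX6A1.
ATP5I: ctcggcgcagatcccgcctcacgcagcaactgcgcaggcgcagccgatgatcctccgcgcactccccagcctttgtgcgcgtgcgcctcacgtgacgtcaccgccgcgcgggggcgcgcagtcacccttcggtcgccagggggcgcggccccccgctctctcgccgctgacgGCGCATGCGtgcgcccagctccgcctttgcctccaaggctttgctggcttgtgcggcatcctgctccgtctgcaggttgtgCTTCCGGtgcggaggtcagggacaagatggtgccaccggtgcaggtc
ATP5J: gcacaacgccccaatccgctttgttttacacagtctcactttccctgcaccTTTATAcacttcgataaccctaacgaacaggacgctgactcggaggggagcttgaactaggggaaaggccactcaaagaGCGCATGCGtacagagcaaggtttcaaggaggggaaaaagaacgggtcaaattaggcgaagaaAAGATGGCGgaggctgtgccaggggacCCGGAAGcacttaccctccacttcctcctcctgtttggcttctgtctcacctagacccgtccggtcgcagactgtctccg
COX6A1: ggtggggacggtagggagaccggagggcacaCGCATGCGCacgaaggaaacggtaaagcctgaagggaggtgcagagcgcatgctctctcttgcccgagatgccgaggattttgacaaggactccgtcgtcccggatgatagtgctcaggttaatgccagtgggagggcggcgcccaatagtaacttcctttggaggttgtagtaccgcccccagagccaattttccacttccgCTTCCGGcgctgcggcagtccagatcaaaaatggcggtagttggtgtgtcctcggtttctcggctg
The ATP5J window also holds the YY1 letters and the reverse complement of the TATAAA letters. A match is a description of these letters and no evidence of binding.

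The deposited unit is FPKM, the fragments of a transcript relative to its length in kilobases and to the mapped fragments of the library. Levels of different genes can thus be compared, with the limit that the transcript lengths used are not listed. Beside each FPKM stands the interval that Cufflinks puts around it, which covers counting and assignment error within 1 library. At 209 annotated loci where the bounds imply a whole number of fragments, the FPKM worth of 1 fragment was nearly equal in both libraries (PRSS35 over EV, median 0.999). The PRSS35 transcript had 0.643 FPKM (interval 0.445 to 0.841) in EV and 1836 FPKM (interval 1759 to 1912) in the PRSS35 library. Of the liver markers checked, SERPINA1, APOA1 and TF were above 200 FPKM in both libraries, while ALB had 4.05 and 5.21 FPKM and FGB 0.598 and 0.540 FPKM. PTPRC, the leukocyte marker, was listed at 0 in both. Changes are log2((FPKM in PRSS35 + 1)/(FPKM in EV + 1)), and the range given with a change pairs the opposite ends of both intervals. A gene was called expressed at a mean of at least 1 FPKM over both libraries. A member is called higher or lower here where its EV and PRSS35 intervals were apart.

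Of the 44 members, 38 were expressed, and together the members held 1.97% of the FPKM over named loci in EV and 1.98% in PRSS35. The levels ran over 3 orders of magnitude, from ATP5S, with 1.82 FPKM in EV and 1.63 FPKM in PRSS35, to COX8A, with 2575 and 2344 FPKM. The order was nearly kept between the libraries, with a Spearman rho of 0.97 over the 38 members, as a description. One member differed by 2-fold or more. ATP5G3 was higher in PRSS35, and 0 members were lower, where 1.89% of 10133 expressed genes were higher and 1.84% were lower at 2-fold. At 1.5-fold, 2 of the 38 members, ATP5G3 and COX7B2, were higher and 0 were lower, against 4.32% and 3.55% of all expressed genes. The intervals did not overlap for 17 members, 8 higher and 9 lower in PRSS35, where 24.7% of all expressed genes were higher and 14.3% lower. The members are mostly abundant transcripts, and among the 1231 genes with a mean of at least 100 FPKM the shares were 24.6% higher and 34.0% lower, beside 6 and 8 of the 28 members at that level. The direction of small differences depends on the scaling: with the all-locus total as the divisor, unnamed loci included, the median over all expressed genes moved from 0.06 to 0.68 on the log2 scale, and 37 members were higher and 0 lower, while the named-locus total gave 11 and 5 and upper quartile scaling 7 and 13. The median log2 change of the 38 members was -0.03, and that of all expressed genes was 0.06.

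**Figure D1:**
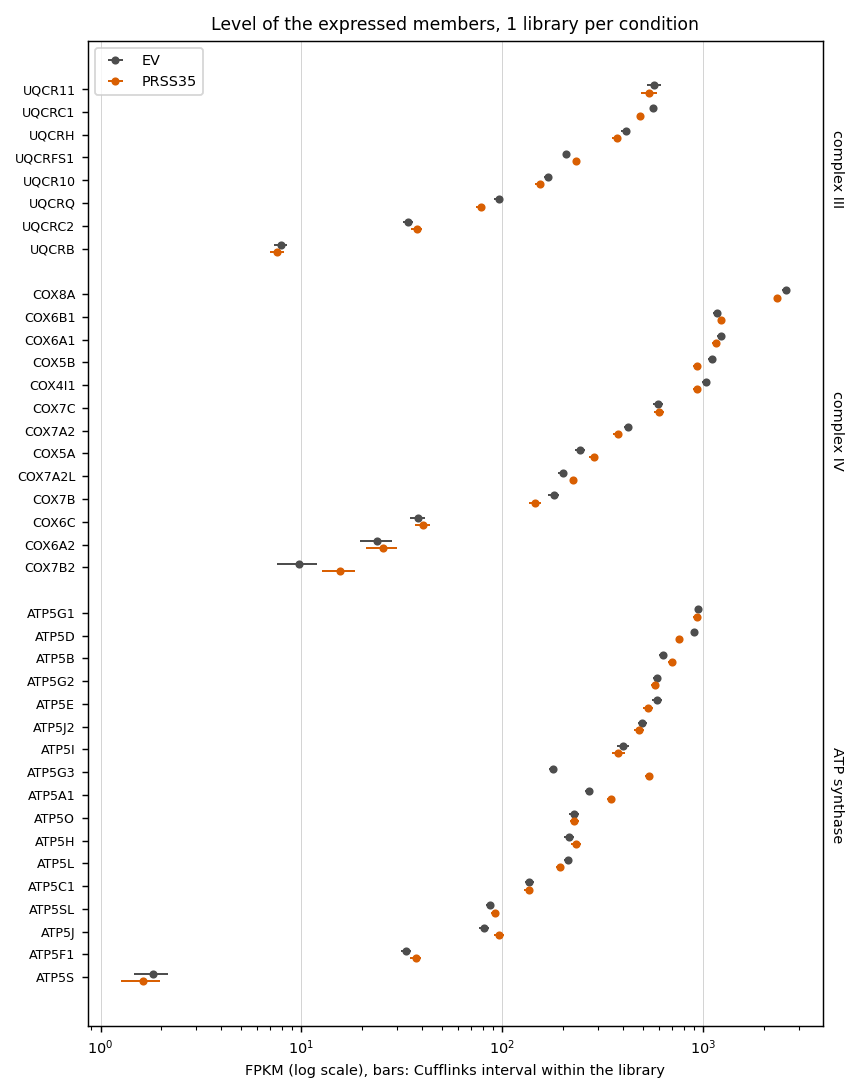
FPKM (log axis) of the 38 expressed members in the EV and PRSS35 libraries, by complex and in order of their mean, with points for 1 library each and bars for the Cufflinks interval within that library. For 36 genes the libraries lie within 0.5 on the log2 scale, and the exceptions are ATP5G3, at 179.4 FPKM in EV and 535.4 FPKM in PRSS35, and COX7B2, at 9.78 and 15.5 FPKM.

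Complex III showed small differences. Of its 8 expressed genes, 1 (12.5%) was higher in PRSS35 and 3 (37.5%) were lower. The shares over all expressed genes were 24.7% and 14.3%, and over genes of at least 100 FPKM 24.6% and 34.0%. The summed level of the complex III genes was 2063 FPKM in EV and 1908 FPKM in PRSS35. UQCRFS1, the Rieske iron-sulfur protein that takes the first electron from ubiquinol, had 207.6 FPKM (interval 202.3 to 213.0) in EV and 232.0 FPKM (interval 226.4 to 237.7) in PRSS35. Its log2 change was 0.16 (range 0.09 to 0.23), the only call upwards in this complex. The core proteins UQCRC1 and UQCRC2, which face the matrix and are related to processing peptidases, did not move together. UQCRC1 was lower in PRSS35, at 487.3 FPKM (interval 480.4 to 494.2) against 564.9 FPKM (interval 557.5 to 572.3) in EV. UQCRC2 had 34.0 FPKM in EV and 37.4 FPKM in PRSS35, with overlapping intervals. The difference in UQCRC1, a log2 change of -0.21, stood on the narrowest intervals of the expressed members, with a half-width of 1.31% of the value in EV. For values of at least 100 FPKM the median half-width over the members was 4.82%. UQCRC1 was not assembled from the reads in either library, and for some members the half-width differed with assembly.

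The 5 supernumerary subunits of complex III, small proteins around the core without redox groups, all had a value below 0 on the log2 scale, between -0.30 and -0.06. UQCRQ had 96.1 FPKM in EV and 77.9 FPKM in PRSS35, a log2 change of -0.30 (range -0.45 to -0.15), and UQCR10 had 169.5 and 153.6 FPKM. Both were called lower, and both were above 0 when the all-locus total was the divisor. The intervals of UQCRH, UQCR11 and UQCRB overlapped. UQCRH, the acidic hinge protein that docks cytochrome c, had 412.2 FPKM in EV and 372.7 FPKM in PRSS35. Its intronless copy UQCRHL on chromosome 1 was listed at 0 in both libraries. UQCRHL shares 53.7% of the 50-base stretches of its canonical transcript with UQCRH, so reads from these stretches cannot be told apart.

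Levels within complex III were unequal although its subunits are present in equal numbers. UQCR11 was highest, with 570.3 FPKM in EV and 539.8 FPKM in PRSS35, and its interval overlapped that of UQCRC1 in both libraries. UQCRB, which binds near the ubiquinone site, was lowest, with 7.91 FPKM (interval 7.32 to 8.50) and 7.57 FPKM (interval 6.97 to 8.17). The highest level was thus 72.1 times the lowest in EV and 71.3 times in PRSS35. The canonical UQCRB transcript in GENCODE has 8459 bases, against a median of 955.5 bases over the members. FPKM divides by the length of the transcripts a run has chosen, which the gene tables do not list, so the level of UQCRB depends on a length that is not known here. The other neighbours in the order differed by more than their intervals in both libraries.

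Complex IV held the most abundant transcripts. Of its 13 expressed genes 3 (23.1%) were higher in PRSS35 and 5 (38.5%) were lower. The shares over all expressed genes were 24.7% and 14.3%, and over genes of at least 100 FPKM 24.6% and 34.0%. The sum over the complex IV genes was 8842 FPKM in EV and 8314 FPKM in PRSS35. COX8A, the smallest of the ubiquitous subunits, ranked 46 among named loci in EV and 50 in PRSS35. It had 2575 FPKM (interval 2462 to 2688) in EV and 2344 FPKM (interval 2241 to 2448) in PRSS35, a log2 change of -0.14. Of the 6 ubiquitous isoforms, 4 (66.7%) were called lower and 0 higher, with a median log2 change of -0.14. Among genes of at least 100 FPKM, where all 6 lie, 34.0% were called lower and 24.6% higher. COX4I1, the subunit through which ATP regulates the enzyme, had 1029.7 FPKM in EV and 931.7 FPKM in PRSS35. COX7A2 had 422.8 and 374.9 FPKM. COX7B had 180.8 FPKM (interval 169.4 to 192.2) in EV and 146.1 FPKM (interval 135.8 to 156.3) in PRSS35, the most negative change of all members at -0.31 (range -0.50 to -0.12). For the remaining ubiquitous isoforms, COX6A1 and COX6B1, the intervals overlapped, at 1234 and 1162 FPKM for COX6A1 and at 1175 and 1224 FPKM for COX6B1. Dividing by the all-locus total turned the 4 genes called lower to values above 0.

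The subunits of complex IV with a single gene in these tables went in different directions. COX5A, which faces the matrix, had 244.3 FPKM (interval 231.4 to 257.1) in EV and 285.7 FPKM (interval 271.0 to 300.3) in PRSS35, and was called higher at a log2 change of 0.23. COX5B, its zinc-binding neighbour, had 1114 FPKM in EV and 936.0 FPKM in PRSS35, and was called lower at -0.25. COX6C, with 38.1 and 40.1 FPKM, and COX7C, with 595.2 and 602.6 FPKM, had overlapping intervals. COX7A2L, which joins complexes III and IV into supercomplexes, was called higher, with 199.6 FPKM (interval 189.7 to 209.5) in EV and 225.8 FPKM (interval 220.0 to 231.7) in PRSS35. Among neighbours in the order of levels, 4 of 12 pairs in EV and 2 of 12 in PRSS35 had overlapping intervals, so much of the order of complex IV lies beyond the error within a library. COX6A1 was above COX6B1 in EV and below it in PRSS35, a change of order within the intervals.

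**Figure D2:**
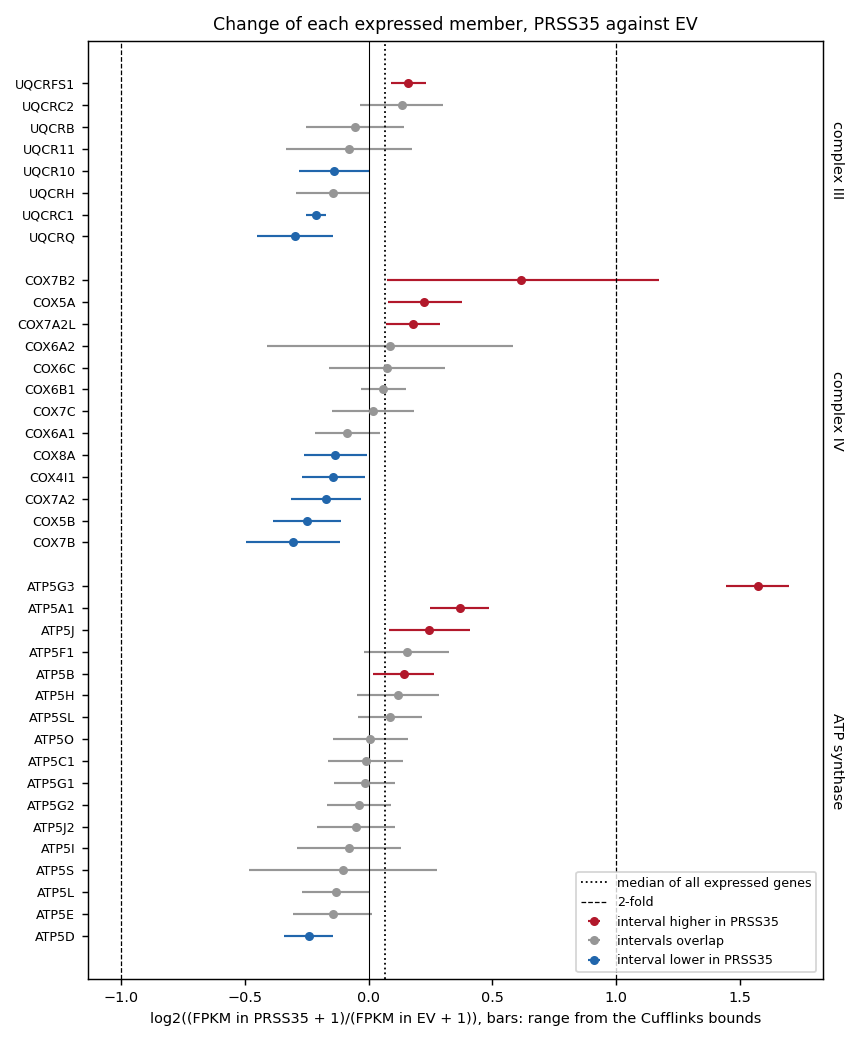
Log2 change of each of the 38 expressed members, ordered within each complex, with bars for the range from the Cufflinks bounds. Of the coloured points, 8 are called higher and 9 lower in PRSS35, and ATP5G3, at 1.57, is the only point beyond the dashed 2-fold lines. The 9 lower genes are above 0 when scaled to the all-locus total.

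Isoforms with a restricted tissue range were low or listed at 0 in both libraries. COX4I2, the isoform of lung and of low oxygen, and COX8C, the testis isoform, were listed at 0 in both. COX7A1, the heart and muscle isoform, had 0.0655 FPKM in EV, where its bounds imply 1 fragment, and was listed at 0 in PRSS35. The testis isoform COX6B2 had 0.213 FPKM in EV and 0.344 FPKM in PRSS35. Exceptions were COX6A2, the heart and muscle isoform, and COX7B2. COX6A2 had 23.9 FPKM (interval 19.6 to 28.2) in EV and 25.4 FPKM (interval 20.9 to 29.8) in PRSS35, which is 1.90% and 2.14% of the sum of the COX6A pair. COX7B2 had 9.78 FPKM (interval 7.59 to 11.96) in EV and 15.5 FPKM (interval 12.7 to 18.4) in PRSS35, a log2 change of 0.62 (range 0.07 to 1.17). Its share of the COX7B pair was 5.13% in EV and 9.61% in PRSS35, as COX7B2 was called higher and COX7B lower. The COX7B2 locus kept its annotation in EV and was assembled from the reads in PRSS35. Genes assembled only in PRSS35 had a median log2 change of 0.15 over 1096 expressed genes, with 36.7% called higher, and the part of assembly in the COX7B2 value was not tested.

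Of the 17 expressed members grouped with the ATP synthase, 4 (23.5%) were called higher in PRSS35 and 1 (5.88%) lower. These 17 include ATP5S and ATP5SL, which are no subunits and had no call. The shares over all expressed genes were 24.7% and 14.3%, and over genes of at least 100 FPKM 24.6% and 34.0%. Differences between the complexes were not tested. The sum over the ATP synthase members, with ATP5S and ATP5SL included, was 6006 FPKM in EV and 6267 FPKM in PRSS35. Both subunits of the catalytic head were called higher. ATP5A1, the alpha subunit, had 270.1 FPKM (interval 259.5 to 280.7) in EV and 348.8 FPKM (interval 333.5 to 364.2) in PRSS35, a log2 change of 0.37. ATP5B, the beta subunit that holds the catalytic sites, had 632.9 FPKM (interval 605.8 to 660.0) in EV and 698.2 FPKM (interval 668.4 to 728.0) in PRSS35, a log2 change of 0.14. The head has equal numbers of alpha and beta subunits, and their transcripts were at unequal levels in both libraries. The canonical GENCODE transcript has 5761 bases for ATP5A1 and 1759 for ATP5B. The lengths behind the FPKM values are not known here, and the unequal levels depend on them.

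The central stalk, which turns inside the head, did not follow the head. ATP5D, the delta subunit, had 900.8 FPKM (interval 869.9 to 931.7) in EV and 761.1 FPKM (interval 734.5 to 787.7) in PRSS35. It was the only member of the ATP synthase called lower, with a log2 change of -0.24, and was at 0.47 with the all-locus total as divisor. ATP5C1, the gamma subunit, had 136.3 and 135.2 FPKM. ATP5E, the epsilon subunit, had 590.3 FPKM in EV and 533.5 FPKM in PRSS35 with overlapping intervals, but its locus is joined with the neighbouring gene SLMO2 in both libraries, so the value is not that of ATP5E alone.

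The peripheral stalk holds the head still. Its 4 genes all had values above 0 on the log2 scale, between 0.01 and 0.24. Called higher was 1 of them (25%), beside 24.7% of all expressed genes. That gene was ATP5J, coupling factor 6, with 81.6 FPKM (interval 76.8 to 86.3) in EV and 96.8 FPKM (interval 91.4 to 102.2) in PRSS35. ATP5F1, the b subunit, had 33.2 and 37.1 FPKM, the lowest subunit level of the ATP synthase in both libraries. ATP5H had 214.8 and 233.2 FPKM, and ATP5O, the oligomycin sensitivity protein, had 227.9 and 228.9 FPKM. Of the membrane accessory subunits, ATP5I, ATP5J2 and ATP5L had overlapping intervals and log2 changes from -0.13 to -0.05. The ATP5J2 locus is joined with PTCD1 and the readthrough ATP5J2-PTCD1, which the rule also names, and its 498.8 FPKM in EV and 481.1 FPKM in PRSS35 stand for all of them. ATP5L2, a copy of ATP5L, was listed at 0 in EV and had 0.0611 FPKM in PRSS35, where the bounds imply 1 fragment. ATP5S and ATP5SL carry the prefix but are no subunits of the ATP synthase, and their intervals overlapped.

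The c-ring held the largest change among the members. ATP5G3, on chromosome 2 of hg19 from 176040986 to 176046490, had 179.4 FPKM (interval 171.3 to 187.4) in EV and 535.4 FPKM (interval 511.8 to 559.0) in PRSS35. The ratio was 2.98 and the log2 change 1.57 (range 1.44 to 1.70), and its rank among named loci went from 812 to 259. With the scalings and pseudocounts tried, the log2 change was between 1.51 and 2.28. ATP5G1 had 947.1 FPKM (interval 906.6 to 987.7) in EV and 936.2 FPKM (interval 895.6 to 976.8) in PRSS35. ATP5G2 had 592.0 FPKM (interval 565.1 to 618.9) in EV and 576.0 FPKM (interval 549.8 to 602.2) in PRSS35. The intervals of ATP5G1 and ATP5G2 overlapped between the libraries, so within this family the libraries differed in ATP5G3. Summed over the 3 genes, which give the same ring protein, the level was 1718 FPKM in EV and 2048 FPKM in PRSS35, a log2 change of 0.25. The share of ATP5G3 in that sum was 10.4% in EV and 26.1% in PRSS35. The locus was assembled from the reads in both libraries. GENCODE lists coding transcripts of 795, 842 and 2587 bases for ATP5G3, and the gene tables do not show to which of them the fragments were assigned. Since FPKM divides by length, the same fragments give different values on the short and the long transcripts. The bounds of ATP5G3 imply 1992 fragments in EV and 2060 in PRSS35, nearly equal beside the ratio of 2.98 in FPKM. Over genes assembled in both libraries, the median implied number in EV was 1936 for 775 genes at 100 to 500 FPKM. It was 2253 for 196 genes above that. These medians are over different genes whose transcript lengths were not held equal. Whether the implied numbers of ATP5G3 are the fragments counted was not tested. The part of transcript length in the difference was not tested.

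**Figure D3:**
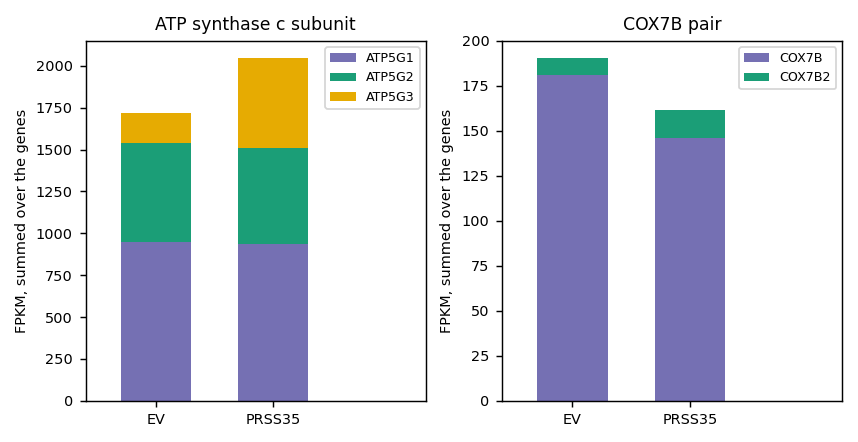
FPKM in EV and PRSS35, stacked over the genes of the c subunit (left) and of the COX7B pair (right), with 1 library per bar and both axes from 0. ATP5G3 makes up 10.4% of the c subunit sum in EV and 26.1% in PRSS35, and COX7B2 5.13% and 9.61% of the sum of its pair.

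Assembly differed between the libraries for 12 of the 44 members. In EV 31 loci, and in PRSS35 23 loci, carried the identifier of a locus assembled from the reads in place of the annotated one. Of the 11 expressed members assembled in 1 library only, 7 had the higher FPKM in the library that assembled them, beside 61.1% of 2121 such genes over all expressed genes. The 6 expressed members with the annotated identifier in EV and PRSS35 alike had 1 call upwards, UQCRFS1, and 3 downwards, UQCRC1, UQCR10 and COX7B. Over the 2390 expressed genes of this kind, 23.4% were called higher and 6.82% lower. These genes were mostly less abundant, with a median of 5.04 FPKM in EV against 194.2 FPKM over the 6 members. Among all genes of at least 100 FPKM, 24.6% were called higher and 34.0% lower. ATP5J and COX7A2L, both called higher in PRSS35, were assembled in EV only. The interval of COX7A2L had a half-width of 4.98% in EV and 2.61% in PRSS35. COX6B1, also assembled in EV only, had 4.53% and 1.86%. For the other expressed members assembled in EV only the half-widths were close, such as 4.28% and 4.33% for ATP5G1. The part of assembly in the calls was not tested.

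The log2 changes were set beside the GC content, the level and the length of the transcripts, as a description. Over the 38 members, Spearman's rho between the log2 change and the GC content of the canonical GENCODE transcript was -0.33, and -0.29 over 37 without ATP5G3. Over the 1092 genes with a mean of at least 100 FPKM and a GC value, 88.7% of all genes at that level, rho was -0.47, whereas over the 9491 expressed genes with a GC value it was -0.12. ATP5D, with 69.5% GC, and UQCRC1, with 58.3% GC, were among the members called lower, and ATP5G3, with 38.5% GC, and COX7A2L, with 38.6% GC, among those called higher. COX7B, with 41.4% GC, was also called lower. Without a call, ATP5E, at 38.4% GC, and UQCRB, at 39.1% GC, had values below 0, and COX6A2, at 66.4% GC, had a value above 0. With the mean level, the log2 change of the members had a rho of -0.32, close to that with GC content. All points share the same pair of libraries, and the part of GC content or level in the calls was not tested. Transcript length had a rho of 0.12 with the log2 change over the members.

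Other genes of the same complexes were compared by lists chosen from textbook knowledge. CYC1, the cytochrome c1 subunit of complex III, was called lower, with 847.3 FPKM (interval 810.8 to 883.9) in EV and 687.2 FPKM (interval 657.3 to 717.1) in PRSS35. ATPIF1, the inhibitor of the ATP synthase when it runs backwards, was called higher, with 234.4 FPKM in EV and 306.1 FPKM in PRSS35, and was assembled in PRSS35 only. The intervals of USMG5, C14orf2 and NDUFA4 overlapped. Subunits encoded in mitochondrial DNA had no named locus in either library, so no level is given for them. Of 5 expressed complex III assembly factors, 3 (60%) were called lower and 1 (20%) higher, beside 14.3% and 24.7% of all expressed genes. Among the lower ones was BCS1L, which inserts the Rieske protein, at 73.2 FPKM in EV and 59.6 FPKM in PRSS35. UQCC3, which acts on cytochrome b, was called higher, with a log2 change of 1.77. It had 111.9 FPKM (interval 106.4 to 117.3) in EV and 383.3 FPKM (interval 362.8 to 403.9) in PRSS35. The UQCC3 locus was assembled from the reads in both libraries, and the part of assembly or transcript length in its difference was not tested.

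Of 25 complex IV assembly factors with a value in both libraries, 3 (12%) were called higher and 4 (16%) lower. The shares over all expressed genes were 24.7% and 14.3%. The median log2 change of these factors was 0.06. COX11, which delivers copper, was higher at 42.2 FPKM against 29.6 FPKM in EV, and COX14 was lower at 120.9 FPKM against 161.9 FPKM. SCO2, another copper chaperone, lies in a locus joined with TYMP and ODF3B that had 451.0 FPKM in EV and 264.9 FPKM in PRSS35. The ATP synthase assembly factors had 1 call upwards (20%), ATPAF2, and 2 downwards (40%) among 5. Values of these lists were computed under the main scaling only. The 4 subunits of complex II, succinate dehydrogenase, had log2 changes between 0.04 and 0.31. Called higher were 3 of them (75%), beside 24.7% of all expressed genes. SDHB, for example, had 89.6 FPKM in EV and 111.6 FPKM in PRSS35.

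Other sets of genes for protein complexes were put beside the members. The median log2 change was -0.12 over 45 expressed NDUF genes of complex I, -0.04 over 76 cytosolic ribosomal protein genes and -0.05 over 76 mitochondrial ribosomal protein genes, beside -0.03 over the 38 members. Calls downwards made up 33.3%, 35.5% and 31.6% of these sets and 23.7% of the members, and calls upwards 20.0%, 22.4%, 18.4% and 21.1%. Over all expressed genes, 14.3% were called lower and 24.7% higher. Among genes of at least 100 FPKM, 34.0% were called lower and 24.6% higher. Differences between the sets were not tested, and genes of a set are not independent replicates.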

How the data were processed

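Total RNA of PLC cells was sequenced on an Illumina HiSeq2500, with 1 library for EV and 1 for PRSS35. Reads were aligned by the authors to hg19 with TopHat2 2.1.0 and quantified with Cufflinks, listed as Cuffdiff 2.2.1 in the submitters' processing notes, which also name the build dm6. The deposited values are FPKM per locus, which the authors' run scaled by transcript length and mapped fragments, with lower and upper bounds. Annotation release, options and strand setting are not given in the sources used here.

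Loci on unplaced or alternate contigs were left out, FPKM and bounds of loci with the same name were summed, and libraries were joined by name, leaving 283 names in EV and 274 in PRSS35 without a partner. Expressed genes had a mean FPKM of at least 1, and 1 FPKM was added before taking log2. No count model or test was used. All members may be named, with both values for those past 2-fold, at 0, joined, with intervals apart, or in isoform families. Of other genes, those of fixed lists are named. Members and lists were chosen with earlier results of these data known. The bounds were read as 2 standard errors, so the fragments behind a value are implied by its relative error under Poisson counting, taken as whole within 0.01 and below 200. Steps were tested on simulated data. Intervals cover counting and assignment error within 1 library only, and the implied fragments rest on these intervals. Coordinates start at 1. Current gene names were taken from RefSeq synonyms. Scripts ran in Python 3.11.15 with matplotlib 3.10.9, scipy 1.17.1, pandas 2.3.3 and numpy 2.4.6.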

Additional observations from a re-analysis of the deposited data

How the results depend on the processing

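ATP5G3 was above 2-fold under the alternatives tried except where loci assembled from the reads were left out. That restriction leaves 6 members, with 0 at 2-fold, 1 called higher and 3 called lower, since fewer genes are counted. At a 1.5-fold threshold 2 members were higher. The scaling mattered most. With the all-locus total as divisor, 3 members were higher at 2-fold, 37 were called higher and 0 lower, and the median log2 change was 0.68, beside 0.68 over all expressed genes. The log2 changes of the genes called lower then became 0.47 for ATP5D, 0.57 for COX4I1, 0.46 for COX5B, 0.54 for COX7A2, 0.40 for COX7B, 0.58 for COX8A, 0.56 for UQCR10, 0.50 for UQCRC1 and 0.40 for UQCRQ. The sum over all loci was 2469030 FPKM in EV and 1508530 FPKM in PRSS35, while over named loci it was 856880 and 831520. With the sum over named loci, 5 members were called lower. Pseudocounts of 0.1 and 5 FPKM, the highest locus per name, the filters on low values and leaving out joined loci kept the counts within 1.5 times. The cause of these moves was otherwise not tested. No paired analysis was possible because EV and PRSS35 hold 1 library each. With 1 library a condition no replicate error is known, and COX7A1 and ATP5L2 rest on about 1 fragment.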

Other observations

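Of 10 regulators of respiratory genes, 7 were expressed. PPARGC1A, the coactivator of mitochondrial biogenesis, had 0.0894 FPKM in EV and 0.0578 FPKM in PRSS35, and NRF1 had 6.61 and 6.57 FPKM. GABPA, which shares its head-to-head promoter region with ATP5J, had 1.80 FPKM in EV and 2.05 FPKM in PRSS35, with overlapping intervals. TFAM, which packs mitochondrial DNA and takes part in its transcription, had 3.84 FPKM in EV and 5.40 FPKM in PRSS35 with intervals apart. PPRC1 had 15.0 and 12.9 FPKM. GABPB1, the partner of GABPA, had 0.888 FPKM in EV and was listed at 0 in PRSS35, below the level called expressed. The GABPB1 locus was assembled from the reads in both libraries, so its 0 can be a failed estimate. Of the 7 expressed genes 2 (28.6%), TFAM and ESRRA, were called higher and 1 (14.3%), PPRC1, lower. The shares over all expressed genes were 24.7% and 14.3%. ESRRA is listed at 0 in EV and has 84.2 FPKM in PRSS35, with a locus assembled in both libraries, and such a 0 can be a failed estimate.

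The mitochondrial genes known to respond to low oxygen held no common direction. NDUFA4L2 was listed at 0 in both libraries although its locus was assembled from the reads in both, so the 0 can be a failed estimate. COX4I2 was also listed at 0 in both and was assembled in neither. LONP1, the protease that removes COX4I1 at low oxygen, had 175.7 FPKM in EV and 186.1 FPKM in PRSS35, and BNIP3 had 19.01 and 19.54 FPKM, both with overlapping intervals. PDK1, which inhibits pyruvate dehydrogenase, had 9.02 FPKM (interval 6.89 to 11.2) in EV and 2.54 FPKM (interval 2.201 to 2.889) in PRSS35. HIGD1A has no matched value, as its locus was joined with CCDC13 in PRSS35 only.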
